A study of Mus musculus with 6 samples.

Results

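Promoter contacts were examined at the chromosome 12 locus of Nkx2-1, Nkx2-9, Pax9 and Foxa1, with the neighbouring genes Slc25a21 and Mbip. Baits, the promoter fragments enriched by capture, were taken where they overlapped 1 of these 6 gene bodies extended by 2 kb, which gave 8 of 19083 baits. Only baits with a contact in the authors' loop lists or comparisons could be seen, so a captured promoter without one is missed. Nkx2-1, Nkx2-9, Foxa1 and Mbip had 1 bait each, and Pax9 and Slc25a21 had 2 each. A loop, here a listed contact of a bait with another stretch of the same chromosome, was counted where either end was such a bait. The locus was chosen with the loop counts and the authors' fold changes of these same libraries known. Those counts and fold changes are therefore descriptions, with no test, and support nothing by themselves.

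All libraries were promoter-capture Micro-C, a method that cuts crosslinked chromatin with micrococcal nuclease, ligates neighbouring ends and enriches promoter fragments. They came from E14 mESC, a mouse embryonic stem cell line labelled wild type, 48 hours after esiRNA was introduced. An esiRNA is a mix of short interfering RNAs cut from longer double-stranded RNA. Brg1KD cells received esiRNA against Smarca4, Ino80KD cells received esiRNA against Ino80, and Control cells received esiRNA against EGFP, a gene that mouse cells lack. Each of the 3 groups had 2 libraries. The labels place replicate 1 of every group in batch 1, replicate 2 of Brg1KD and of Ino80KD in batch 3, and replicate 2 of Control in batch 2. Ino80KD against Brg1KD is thus balanced over batches, and each knockdown against Control is matched in batch 1 only. The labels do not say that replicates were separate cultures, so their spread may be technical. Because no RNA was measured, neither the extent of each knockdown nor the expressed markers of the cells were checked here.

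As background, NKX2-1 is a homeodomain transcription factor of the developing thyroid, lung and ventral forebrain, and NKX2-9 is a related NK2-class homeodomain factor of the early nervous system. PAX9 is a paired-box factor needed for pharyngeal pouch derivatives and teeth, and FOXA1 is a forkhead pioneer factor of endoderm-derived tissues. SLC25A21 is a mitochondrial carrier of oxodicarboxylates, and MBIP is a subunit of the ATAC histone acetyltransferase complex. In embryonic stem cells, promoters of such lineage regulators are commonly held by Polycomb complexes, and Polycomb-bound promoters are known to contact each other over long distances. Brg1 is the ATPase of the esBAF chromatin remodeller, and Ino80 is the ATPase of the INO80 remodeller. The comparisons below ask how the contacts of these promoters are listed after each remodeller is depleted.

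The baits lie in this order along chromosome 12 of mm10, with distances taken between bait centres. The Mbip bait (56345155 to 56346514) lies 190.4 kb to the left of the Nkx2-1 bait (56534367 to 56538028). To the right of Nkx2-1 come the Nkx2-9 bait at 77.3 kb (56612545 to 56614404) and the Pax9 baits at 155.4 kb (56690647 to 56692506) and 159.3 kb (56694519 to 56696378). The first Pax9 bait holds the left end of the gene record and the second lies inside it and holds its RefSeq promoter. The Slc25a21 baits lie at 623.2 kb (57158505 to 57160364, inside the gene) and at 661.5 kb (57196733 to 57198592, over the right end of the gene, with the promoter printed below). RefSeq gives Slc25a21 another promoter at 57160594 to 57160893, just right of the first of these baits. It lies on neither bait and is not printed. The Foxa1 bait (57545382 to 57547241) lies 1010.1 kb from Nkx2-1 and also overlaps the neighbouring gene Ttc6. The Nkx2-1 and Nkx2-9 baits also overlap the noncoding RNA gene Gm26973, and both Pax9 baits overlap the noncoding RNA gene Gm15524, so their contacts cannot be given to 1 gene.

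The promoters of the transcription factor genes and of Slc25a21 are printed because they are captured ends. They also differ widely in CpG content, the feature through which Polycomb complexes are commonly recruited. Each runs 5′ to 3′ along its gene, from 250 bases before to 50 bases after the start in RefSeq GRCm38.p6, which shares its primary chromosomes with mm10, and capitals mark CpG dinucleotides. Nkx2-1 (chr12:56536859-56537158), Nkx2-9 (chr12:56613235-56613534), Slc25a21 (chr12:57197423-57197722) and Foxa1 (chr12:57546062-57546361) are on the minus strand, and Pax9 (chr12:56695221-56695520) is on the plus strand.
Nkx2-1: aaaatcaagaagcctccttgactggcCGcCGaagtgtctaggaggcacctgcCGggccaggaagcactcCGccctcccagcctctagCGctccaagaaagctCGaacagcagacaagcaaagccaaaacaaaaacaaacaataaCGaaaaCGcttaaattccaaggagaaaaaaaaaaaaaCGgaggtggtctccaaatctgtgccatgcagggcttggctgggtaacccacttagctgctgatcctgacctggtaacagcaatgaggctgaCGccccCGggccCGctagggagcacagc
Nkx2-9: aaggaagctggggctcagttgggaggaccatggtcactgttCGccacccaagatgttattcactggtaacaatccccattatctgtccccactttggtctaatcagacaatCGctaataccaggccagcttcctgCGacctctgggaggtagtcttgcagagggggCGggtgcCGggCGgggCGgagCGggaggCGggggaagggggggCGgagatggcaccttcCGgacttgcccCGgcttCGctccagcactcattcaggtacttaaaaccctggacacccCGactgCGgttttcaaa
Pax9: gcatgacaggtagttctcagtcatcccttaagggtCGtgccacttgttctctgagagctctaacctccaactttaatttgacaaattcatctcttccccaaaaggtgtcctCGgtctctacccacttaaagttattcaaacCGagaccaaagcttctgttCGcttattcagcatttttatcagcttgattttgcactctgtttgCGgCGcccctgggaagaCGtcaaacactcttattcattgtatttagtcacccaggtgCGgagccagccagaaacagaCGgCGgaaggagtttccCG
Slc25a21: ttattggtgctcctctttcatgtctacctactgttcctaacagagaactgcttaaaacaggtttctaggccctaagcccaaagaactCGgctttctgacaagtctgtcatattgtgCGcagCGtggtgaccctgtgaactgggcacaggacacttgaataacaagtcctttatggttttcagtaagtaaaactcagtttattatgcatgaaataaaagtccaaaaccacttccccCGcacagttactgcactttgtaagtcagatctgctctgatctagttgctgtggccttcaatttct
Foxa1: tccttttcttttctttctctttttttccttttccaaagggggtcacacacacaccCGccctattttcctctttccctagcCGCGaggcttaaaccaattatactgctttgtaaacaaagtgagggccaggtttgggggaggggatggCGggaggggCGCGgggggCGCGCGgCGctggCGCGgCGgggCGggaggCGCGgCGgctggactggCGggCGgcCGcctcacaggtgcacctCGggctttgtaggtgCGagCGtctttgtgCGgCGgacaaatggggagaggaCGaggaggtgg

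The Foxa1 promoter held 26 CpGs, more than 83.1% of the 32851 RefSeq promoters of the same length, whose median is 7. Nkx2-9 held 15 CpGs, Nkx2-1 held 12 and Pax9 held 11, above that median but more than only 65.4%, 60.4% and 58.6% of promoters. The printed Slc25a21 promoter held 4, below the median and more than 31.4% of promoters. The Mbip promoter, which is not printed, held 8, more than 51.4% of promoters. Of 3 motifs searched on both strands, the GC box GGGCGG matched 4 times in Nkx2-9, 3 times in Foxa1 and 1 time in Nkx2-1, and 35.7% of all promoters held it. The forkhead motif TGTTTAC matched in Foxa1 at base 110 on the opposite strand, counted from 1 at the 5′ end, and 3.65% of promoters held it. The NK2 motif TNAAGTG matched once in each of Pax9 (base 123), Slc25a21 (base 151) and Mbip (base 32), on the opposite strand in each, and 11.5% of promoters held it. No match to 1 of these motifs overlapped a match to another motif here, while 2 of the GC boxes of Nkx2-9 share 1 base. A match describes the letters only and was not tested as a binding site.

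Fewer loops of this locus were listed in the Brg1KD libraries than in any other library, and the Ino80KD and Control libraries overlapped. The Brg1KD libraries listed 4 and 8 such loops, the Ino80KD libraries 22 and 29, and the Control libraries 24 and 14. A list holds loops from an interaction score of 5 upward. The loop caller is not given, so why a loop is not listed is unknown, and its absence is not shown. To allow for the length of the lists, counts were divided by the 12254 and 12962 intrachromosomal loops of the Brg1KD lists, 14675 and 14113 of the Ino80KD lists, and 15322 and 14394 of the Control lists. This gave 0.326 and 0.617 loops per 1000 in Brg1KD (95% Wilson intervals 0.127 to 0.839 and 0.313 to 1.22), 1.50 and 2.05 in Ino80KD (0.990 to 2.27 and 1.43 to 2.95), and 1.57 and 0.973 in Control (1.05 to 2.33 and 0.580 to 1.63). Intervals cover counting error only, loops of 1 bait are not independent, and the sequencing depth of each library is unknown.

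Brg1KD averaged 0.472 ± 0.206 loops per 1000, and Control averaged 1.27 ± 0.420 (SD, n = 2 each), a ratio of 0.372. Within batch 1 the ratio was 0.208. Ino80KD averaged 1.78 ± 0.393 loops per 1000 (SD, n = 2), 1.40 times the Control mean, but within batch 1 the ratio was 0.957, so this direction did not hold there. Control replicate 1 lay between the Ino80KD libraries, and Control replicate 2, in a batch of its own, lay below both. Ino80KD against Brg1KD gave a ratio of 3.77, with 4.59 within batch 1 and 3.33 within batch 3. With 2 libraries against 2 an exact permutation test cannot go below p = 0.33, so none was run. Brg1KD replicate 1 also stood apart from the other libraries in its interchromosomal loops, 3809 against 2405 to 2942 elsewhere, and its part in these ratios was not tested. Leaving it out gave a Brg1KD to Control log2 ratio of -1.04 in place of -1.43.

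**Figure D1:**
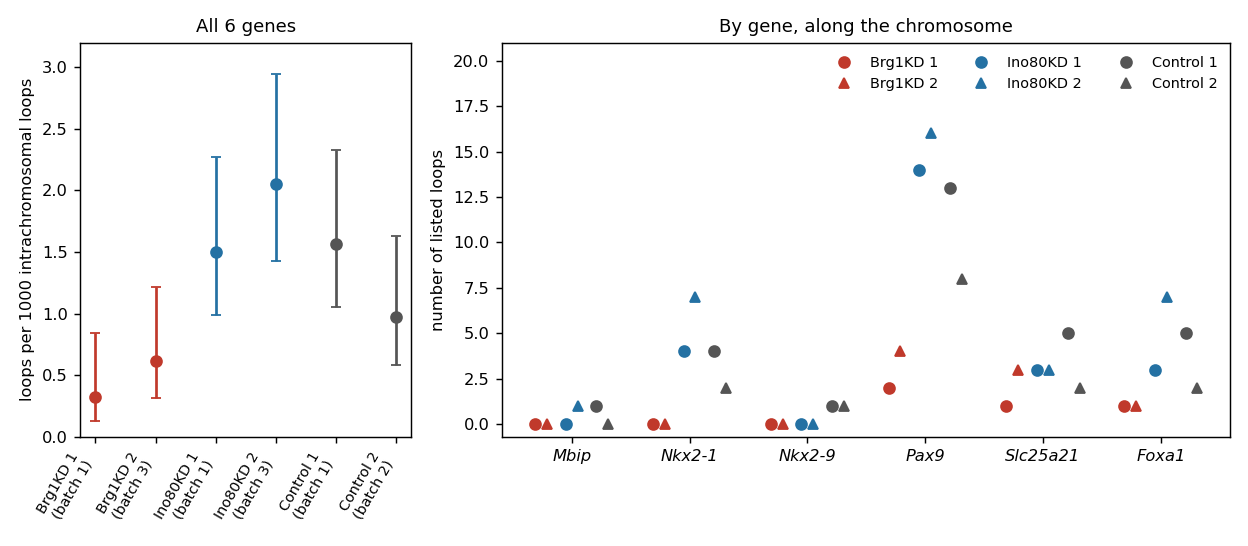
Left, loops of the 6 genes per 1000 intrachromosomal loops of each library, with 95% Wilson intervals as bars. Right, the number of listed loops per gene and library, with circles for replicate 1 and triangles for replicate 2. The Brg1KD libraries lie lowest on the left, at 0.326 and 0.617, and Pax9 has the most loops on the right.

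By gene, a loop with a bait of 2 members at its ends counts for both. Pax9 had the most loops in every group, 2 and 4 in Brg1KD, 14 and 16 in Ino80KD, and 13 and 8 in Control. All Brg1KD values lay below both Control values and both Ino80KD values lay above them, without overlap. Nkx2-1 had no listed loop in either Brg1KD library, 4 and 7 in Ino80KD, and 4 and 2 in Control, so that Ino80KD and Control touched at 4. Foxa1 had 1 loop in each Brg1KD library, 3 and 7 in Ino80KD, and 5 and 2 in Control. The Foxa1 values of Brg1KD lay below all others, and those of Ino80KD and Control overlapped. Slc25a21, the mitochondrial carrier gene, had 1 and 3 loops in Brg1KD, 3 and 3 in Ino80KD, and 5 and 2 in Control, which overlap in all 3 groups. Nkx2-9 was listed with 1 loop in each Control library and none in the other 4 libraries. Mbip had a single loop in Ino80KD replicate 2 and in Control replicate 1 and none elsewhere.

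The order of the genes in Control was Pax9 first, with 0.702 ± 0.207 loops per 1000, then Foxa1 and Slc25a21 with 0.233 ± 0.133 each, then Nkx2-1 with 0.200 ± 0.086 (SD, n = 2 each). Foxa1, Slc25a21 and Nkx2-1 did not differ beyond their spread. Pax9 and Slc25a21 have 2 baits each, which adds to their counts. Nkx2-9 followed with 0.067 ± 0.003 and Mbip with 0.033 ± 0.046 (SD, n = 2 each), and these also overlapped. In Ino80KD Pax9 had 1.04 ± 0.127 loops per 1000, Nkx2-1 0.384 ± 0.158, Foxa1 0.350 ± 0.206 and Slc25a21 0.209 ± 0.006 (SD, n = 2 each), and the ranges of the last 3 were close together or overlapped. In Brg1KD Pax9 had 0.236 ± 0.103, Slc25a21 0.157 ± 0.106 and Foxa1 0.079 ± 0.003 (SD, n = 2 each), and neighbours in that order did not differ beyond their spread.

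The loops fell into a few contacts between named promoters, and these contacts did not share 1 pattern. A loop was given to a pair of genes where the bait nearest to its other end, within 20 kb, was of the second gene. Contacts among Nkx2-1, Pax9 and Foxa1, the transcription factor genes with most loops, were listed in Ino80KD and Control and in neither Brg1KD library. They numbered 0 and 0 in Brg1KD, 15 and 17 in Ino80KD, and 12 and 4 in Control, with group means of 0, 16.0 ± 1.41 and 8.0 ± 5.66 (SD, n = 2 each). The Ino80KD and Control libraries did not overlap in this count, and the gap within batch 1 was 15 against 12. Contacts of Pax9 with Slc25a21, which lies between Pax9 and Foxa1, numbered 3 and 7 in Brg1KD, 5 and 5 in Ino80KD, and 7 and 6 in Control. The Brg1KD values spanned those of the other groups, with replicate 2 listing as many as the highest Control library, and both Ino80KD values lay below both Control values, by 1 loop at the nearest. Some of these loops join a Slc25a21 bait to a stretch that holds the 3′ part of Pax9 and also the far end of Slc25a21. Those loops cannot be given to Pax9 alone. Others of them end at 57200001 to 57220000, which also lies within 20 kb of a bait of the neighbouring gene Mipol1. They were counted for Slc25a21, whose bait is nearer, but cannot be given to it alone.

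Of the 3 contacts between transcription factor genes, Nkx2-1 to Pax9 was the shortest, at 149.1 to 168.3 kb, and had 0 and 0 loops in Brg1KD, 4 and 5 in Ino80KD, and 4 and 3 in Control. Pax9 to Foxa1 spanned 834.6 to 876.3 kb and had 0 and 0 loops in Brg1KD, 8 and 9 in Ino80KD, and 7 and 1 in Control. The Control libraries thus lay far apart, and Control replicate 1, of batch 1, was 1 loop below the Ino80KD library of its batch. Nkx2-1 to Foxa1 was the longest, at 993.8 to 1019.1 kb, with 0 and 0 loops in Brg1KD, 3 and 3 in Ino80KD, and 1 and 0 in Control. It was the contact with the fewest loops in Control, and the Ino80KD values lay above both Control values. With a minimum score of 7 the contacts among the 3 genes still numbered 0 and 0 in Brg1KD, with 7 and 12 in Ino80KD and 7 and 1 in Control, so that Ino80KD and Control then touched at 7.

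**Figure D2:**
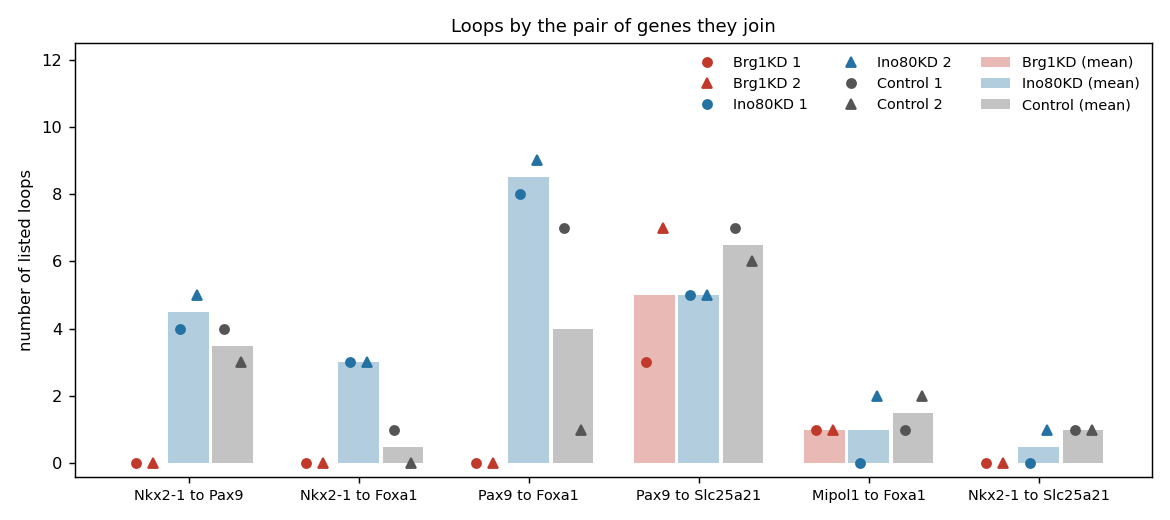
Number of listed loops for each pair of genes, with a bar at the group mean and a circle (replicate 1) or triangle (replicate 2) for each library. The 3 contacts among Nkx2-1, Pax9 and Foxa1 have no loop in Brg1KD, whereas Pax9 to Slc25a21 has 3 and 7 there, against 7 and 6 in Control.

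The other contacts had few loops. Foxa1 to its neighbour Mipol1, a gene between Slc25a21 and Foxa1, had 1 and 1 loops in Brg1KD, 0 and 2 in Ino80KD, and 1 and 2 in Control, so the only loop of Foxa1 in each Brg1KD library was this one, at a span of 276.3 kb. Nkx2-1 to Slc25a21 had 0 and 0 in Brg1KD, 0 and 1 in Ino80KD, and 1 and 1 in Control. Nkx2-1 to Nkx2-9, 77.3 kb apart, was listed in Control replicate 1 alone, and Mbip to Nkx2-1 in Ino80KD replicate 2 alone. Of 44 distinct loops, 7 ended near none of these baits. The longest of those joined Nkx2-1 to a stretch 46958.6 kb away in Ino80KD replicate 2 only.

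**Figure D3:**
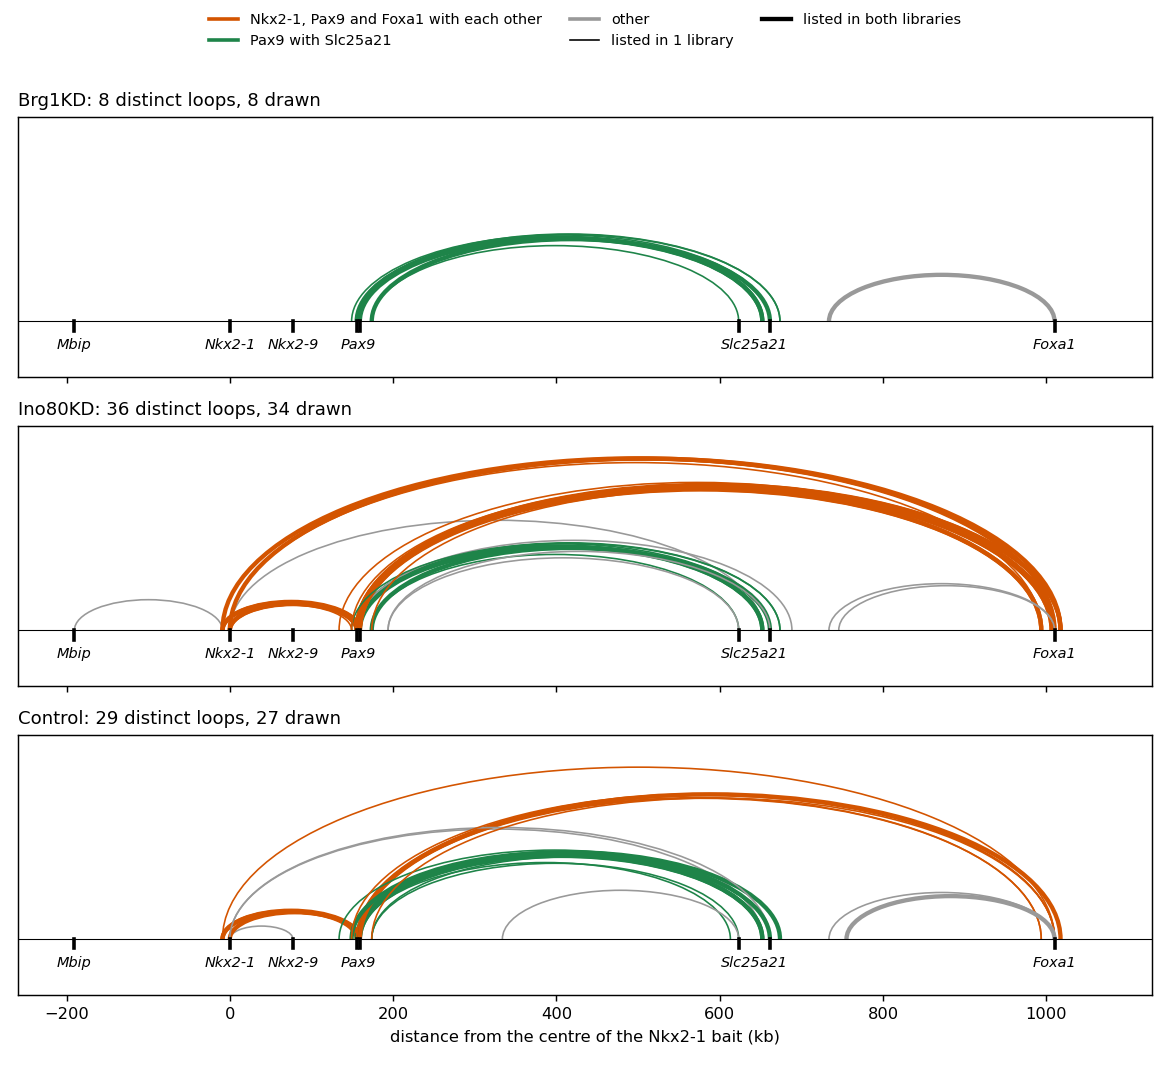
Every loop of the locus as an arc between its 2 ends, in kb from the centre of the Nkx2-1 bait, with 1 panel per group and thick arcs for loops in both libraries of the group. Black ticks mark the baits. Of the distinct loops in each group, 8 of 8 are drawn for Brg1KD, 34 of 36 for Ino80KD and 27 of 29 for Control, and the rest end outside the plotted range. The Brg1KD panel holds arcs of Pax9 with Slc25a21 and of Foxa1 with Mipol1 only.

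Most loops of this locus were listed in more than 1 library. Of the 44 distinct loops, 19 (43.2%) were listed in 1 library, against 68.0% of the 49634 intrachromosomal loops of all baits. The locus was chosen on these lists, and neighbouring baits and stretches share contacts, so nothing is read from this gap. Of the 44, 17 were listed in at least 3 libraries and are called repeated here. The loops of the locus were also long, with median spans of 490.3 and 494.9 kb in Brg1KD, 683.8 and 652.2 kb in Ino80KD, and 513.4 and 490.3 kb in Control. The medians over all loops of these lists ran from 219.8 to 280.4 kb.

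The loops listed in all 6 libraries were 2, and both joined a Pax9 bait to the stretch just left of the Slc25a21 promoter bait (57180001 to 57196732). From the first Pax9 bait the authors' scores were 10.53 and 8.68 in Brg1KD, 10.64 and 5.36 in Ino80KD, and 11.08 and 9.61 in Control. From the second they were 5.37 and 6.95 in Brg1KD, 15.06 and 8.73 in Ino80KD, and 10.49 and 10.05 in Control. A score is comparable within its own list only, where these loops lay between percentiles 23.7 and 98.6. From the opposite side, the Slc25a21 promoter bait was joined to the 3′ part of Pax9 (56700001 to 56720000) in 5 libraries, with scores of 5.53 and 5.52 in Brg1KD, 7.07 and 6.97 in Ino80KD, and 5.21 in Control replicate 2. That stretch also holds the far end of Slc25a21 itself, which begins at 56712634, so this loop cannot be given to Pax9 alone. The same bait was joined to the stretch beside the left end of Pax9 (56680001 to 56690646) in 4, with 6.47 in Brg1KD replicate 2, 6.59 in Ino80KD replicate 2, and 6.37 and 6.10 in Control.

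Other repeated loops of Pax9 with Slc25a21 reached the stretch right of the Slc25a21 promoter (57200001 to 57220000), which is also within 20 kb of a Mipol1 bait. The second Pax9 bait had this loop in 4 libraries, with scores of 5.07 in Brg1KD replicate 2, 8.26 in Ino80KD replicate 2, and 7.33 and 8.15 in Control. The first Pax9 bait had it in 3, with 6.25 in Brg1KD replicate 2, 5.60 in Ino80KD replicate 1 and 6.63 in Control replicate 1. The Slc25a21 bait inside the gene contacted the stretch with the 3′ part of Pax9 and the far end of Slc25a21. Its scores were 6.03 in Brg1KD replicate 2, 9.21 in Ino80KD replicate 1 and 5.37 in Control replicate 1. Every repeated loop of this pair was thus listed in at least 1 Brg1KD library. The repeated Foxa1 loop to the stretch beside Mipol1 (57260001 to 57280000) was too, with 5.27 and 5.63 in Brg1KD, 7.96 in Ino80KD replicate 2 and 5.34 in Control replicate 2.

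The repeated loops among Nkx2-1, Pax9 and Foxa1 were listed in neither Brg1KD library. Both Pax9 baits contacted the stretch left of the Nkx2-1 bait (56520001 to 56534366) in all Ino80KD and Control libraries. From the first Pax9 bait its scores were 8.06 and 9.88 in Ino80KD and 5.02 and 5.63 in Control, and from the second 7.41 and 12.04 in Ino80KD and 6.18 and 5.70 in Control. The second Pax9 bait also contacted the Nkx2-1 bait itself in these 4 libraries, with 9.64 and 5.51 in Ino80KD and 7.01 and 5.70 in Control. The first did so in 3, with 9.01 and 8.64 in Ino80KD and 7.13 in Control replicate 1. Several stretches are neighbours of each other, so these loops share contacts and are not separate evidence.

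On the Foxa1 side, the stretch beside the Foxa1 bait (57547242 to 57560000) was joined to the second Pax9 bait in 4 libraries, with scores of 6.95 and 8.12 in Ino80KD and 11.07 and 12.73 in Control. It ranked at percentiles 95.7 and 97.8 of the Control lists, the second of which is replicate 2, the Control library with few loops here. The first Pax9 bait contacted the same stretch with 6.08 and 9.03 in Ino80KD and 7.16 in Control replicate 1. A stretch further left of Foxa1 (57520001 to 57540000) was joined to the first Pax9 bait with 6.67 and 10.52 in Ino80KD and 5.06 in Control replicate 1, and to the second with 6.81 and 5.11 in Ino80KD and 5.73 in Control replicate 1. The Foxa1 bait reached the stretch left of Nkx2-1 with 10.71 and 11.7 in Ino80KD and 5.43 in Control replicate 1. This loop of 1019.1 kb stood at percentiles 95.3 and 96.9 of the Ino80KD lists and at percentile 26.1 of its Control list.

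Loops between 2 baits numbered 8, and the remaining ones were listed in 1 or 2 libraries each. The first Pax9 bait to the Foxa1 bait was listed in Ino80KD replicate 2 (10.56), and the second in Ino80KD replicate 2 (9.31) and Control replicate 1 (9.91). Nkx2-1 was joined bait to bait with Foxa1 in Ino80KD replicate 2 (5.61), with Slc25a21 in Control replicate 1 (5.68) and with Nkx2-9 in Control replicate 1 (5.71). Mipol1 was joined to Foxa1 in Ino80KD replicate 2 with a score of 6.0. None of these loops was listed from both of its baits.

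Loops were also counted by whole groups. Of the 29 loops listed in any Brg1KD or Control library, 5 (17.2%) were in both Control libraries and neither Brg1KD library, and 0 the other way round, where the shares over all loops were 3.58% and 1.96%. Of the 36 in any Ino80KD or Brg1KD library, 12 (33.3%) were in both Ino80KD and neither Brg1KD library and 0 the other way round, where all loops gave 3.79% and 2.19%. Of the 44 in any Ino80KD or Control library, 3 (6.82%) were in both Ino80KD and neither Control library and 1 (2.27%) the other way round, where all loops gave 2.51% and 2.78%. The locus was chosen on these lists, so nothing is read from the distance to the shares over all loops.

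The authors' tables compare the contact signal of a bait with wider regions, which can overlap and share contacts, between each knockdown and Control. The tables' headers do not state the direction of the fold change. In the Brg1KD table, 83.4% of the 728 loops listed in both Brg1KD libraries and neither Control library had a value above 0, against 16.7% of the 1318 listed the other way round. In the Ino80KD table these shares were 86.3% of 976 and 15.4% of 1064, so a value above 0 is read as higher in the knockdown. No entry of either table had an adjusted p under 0.05 (0.0% of 33243 and 0.0% of 34774), where p is the one without weighting. The authors also give a weighted p and its adjusted value, which are not reported here. All p-values quoted below are the authors' unadjusted ones, and the same entries had adjusted p-values of 0.9999 for Brg1KD and 0.9998 for Ino80KD.

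In the authors' deposited table for Brg1KD, contacts of Pax9 with Foxa1 had the lowest log2 fold changes of the locus. The authors' deposited table held 27 entries of these baits, with a median log2 fold change of -0.29 against -0.01 over the whole table, and 24 of the 27 were below 0, where 51.3% of all entries were. It gave 7 of the 27 an unadjusted p under 0.05 in the lower direction, where 0.827% of all entries had one, and 0 in the higher direction, where 0.373% had one. The locus was chosen on this table, so nothing is read from these shares.

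The 3 Pax9 entries over Foxa1 ran from -1.19 to -0.96 in the authors' deposited table, on the log2 scale, with SEs of 0.47 to 0.49 and unadjusted p of 0.0124 to 0.0388. Seen from the Foxa1 bait, the authors' deposited table gave -1.14 ± 0.47 (SE, unadjusted p = 0.0145) over a region with Nkx2-9 and Pax9 and -1.09 ± 0.48 (SE, unadjusted p = 0.0241) over Pax9. These are views of 1 contact from its 2 ends and overlap. The 4 Pax9 entries over Nkx2-1 ran from -0.71 to -0.28 in the authors' deposited table, and the lowest had an SE of 0.30 and an unadjusted p of 0.0199. Pax9 with Slc25a21 gave values from -0.50 to -0.07 over 5 entries of the authors' deposited table, none with an unadjusted p under 0.05. In 4 of these 5 the region also held a bait of the neighbouring gene Mipol1. From the Slc25a21 baits, 4 entries over Pax9 ran from -0.26 to 0.01 in the authors' deposited table. Of these 4, 2 were over regions that also held the Nkx2-9 bait, and regions reaching past 56712634 also held the far end of Slc25a21 itself. All entries joining Pax9 and Foxa1 thus lay below all entries joining Pax9 and Slc25a21, and those joining Pax9 and Nkx2-1 overlapped with the Slc25a21 ones. Foxa1 with Mipol1 gave -0.02 and 0.07 there, with SEs of 0.26 and 0.27 in the authors' deposited table. Foxa1 with Nkx2-1 had 1 entry in the authors' deposited table, at -0.31 ± 0.58 (SE), an error larger than the value.

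Mean signals in the authors' deposited table for Brg1KD were low for the long contacts, 29.9 to 34.6 for Pax9 with Foxa1 against 79.6 to 98.9 for Pax9 with Nkx2-1. By bait gene, the authors' deposited table gave median log2 fold changes of -0.50 over 12 entries of Pax9, -0.31 over 5 of Foxa1 and -0.14 over 6 of Slc25a21. All 12 Pax9 entries were below 0. Mbip and Nkx2-1 had 1 entry each in the authors' deposited table, at -0.51 ± 0.61 and -0.08 ± 0.36 (SE), and the 2 entries of Nkx2-9 were 0.21 ± 0.45 and -0.19 ± 0.24 (SE). Those of Mbip, Nkx2-1 and Nkx2-9 were all within 1 SE of 0.

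In the authors' deposited table for Ino80KD, contacts of Nkx2-1 with Foxa1 had the highest log2 fold changes of the locus. The authors' deposited table held 44 entries of these baits, with a median log2 fold change of 0.16 against 0.00 over the whole table, and 32 of the 44 were above 0, where 50.4% of all entries were. It gave 3 of the 44 an unadjusted p under 0.05 in the higher direction, where 0.912% of all entries had one, and 0 in the lower direction, where 0.382% had one. Here too the locus was chosen on the table, and nothing is read from the shares.

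From the Nkx2-1 bait, the authors' deposited table gave 0.89 ± 0.36 and 0.85 ± 0.37 (SE) over Foxa1, on the log2 scale, with unadjusted p of 0.0138 and 0.0211. From the Foxa1 bait, the authors' deposited table gave 0.90 ± 0.45 and 0.82 ± 0.43 (SE) over Nkx2-1, with unadjusted p of 0.0457 and 0.0558. The 4 Pax9 entries over Nkx2-1 ran from 0.18 to 0.46 in the authors' deposited table, and the highest had an SE of 0.25 and an unadjusted p of 0.0634. Pax9 over Foxa1 ran from 0.06 to 0.55 in 8 entries of the authors' deposited table, with unadjusted p of 0.139 to 0.870. Pax9 over Slc25a21 ran from -0.30 to -0.07 in 6 entries of the authors' deposited table, all of them below 0. In 5 of these 6 the region also held a Mipol1 bait. The reverse view from the Slc25a21 baits gave -0.08 to 0.17 in 6 entries of the authors' deposited table, 2 of them over regions that also held the Nkx2-9 bait. By bait gene, the medians of the authors' deposited table were 0.39 over 9 entries of Foxa1, 0.25 over 5 of Nkx2-1, 0.14 over 18 of Pax9, 0.04 over 8 of Slc25a21, 0.02 over 2 of Nkx2-9 and -0.22 over 2 of Mbip.

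The 2 tables share the Control libraries, so their values are set side by side only. For the 27 entries in both, the value of the authors' deposited table for Ino80KD minus that for Brg1KD had a median of 0.28 on the log2 scale, against 0.01 over the 23522 entries shared by the whole tables, and 21 of the 27 were above 0, where 51.1% of all were. The second Pax9 bait over Foxa1 had 0.10 ± 0.37 in the authors' deposited table for Ino80KD and -1.19 ± 0.48 (SE) in that for Brg1KD. Foxa1 over Pax9 had 0.39 ± 0.37 in the authors' deposited table for Ino80KD and -1.09 ± 0.48 (SE) in that for Brg1KD. The contact of Foxa1 with Mipol1 lay within 1 SE of 0 in both of the authors' deposited tables. This difference between the tables was not tested.

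**Figure D4:**
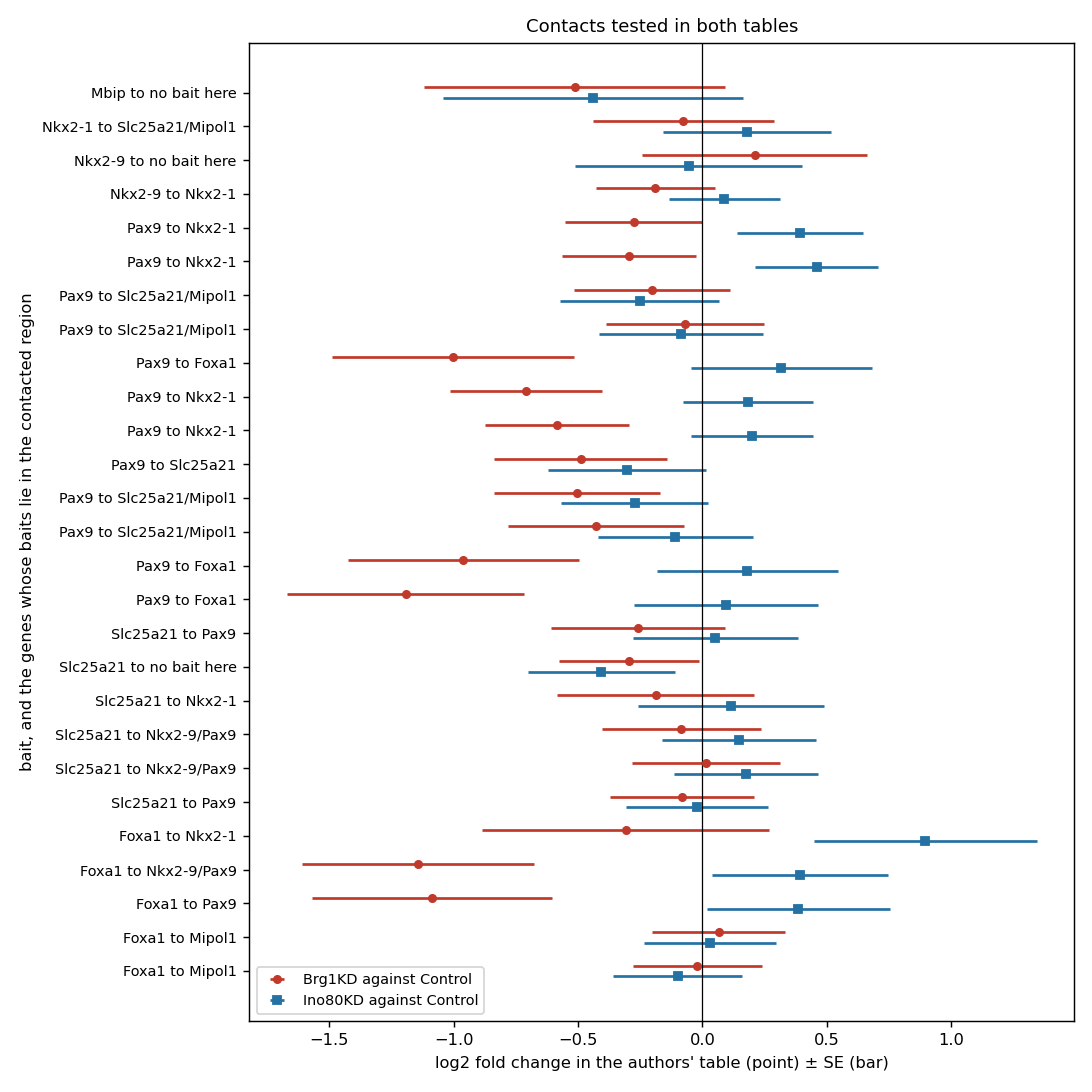
Log2 fold change (points) ± SE (bars) for the 27 entries found in both of the authors' deposited tables, in the order of the baits along the chromosome, with Brg1KD against Control as circles and Ino80KD against Control as squares. Pax9 with Foxa1 lies between -1.19 and -0.96 in Brg1KD, and Foxa1 with Mipol1 lies close to 0 in both.

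Genes around the locus were counted in the same way. Of 15 neighbouring genes of chromosome 12, 12 had baits of their own with a contact in these data, 14 in all. These baits had 7 and 5 loops in Brg1KD, 9 and 11 in Ino80KD, and 8 and 13 in Control. In these raw counts the Brg1KD values were the lowest, by 1 loop at the nearest, and Ino80KD and Control overlapped. The counts were not divided by the length of the lists, which are shortest in Brg1KD, so no order is read from them. None of the neighbours' 18 entries in the authors' deposited table for Brg1KD and none of the 23 in that for Ino80KD had an unadjusted p under 0.05. Among all entries of each, 0.827% were lower and 0.373% higher for Brg1KD, and 0.382% lower and 0.912% higher for Ino80KD, so a count of 0 is near the background and no contrast with the locus is read from it. Nfkbia, which encodes an inhibitor of NF-κB and is the neighbour with the most loops, had 5 and 1 loops in Brg1KD, 3 and 5 in Ino80KD, and 3 and 6 in Control. Those values overlapped in all 3 groups.

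The paralogous locus on chromosome 2, which holds Foxa2, Nkx2-2, Nkx2-4 and Pax1, had 5 baits and fewer loops in Brg1KD than in the other groups. It had 3 and 2 loops in Brg1KD, 16 and 18 in Ino80KD, and 13 and 11 in Control. Pax1, the paralogue of Pax9, had 1 and 0 loops in Brg1KD, 9 and 11 in Ino80KD, and 8 and 7 in Control, and Foxa2, the paralogue of Foxa1, had 2 and 2 in Brg1KD, 8 and 7 in Ino80KD, and 7 and 5 in Control. Its 18 entries in the authors' deposited table for Brg1KD had a median log2 fold change of -0.52, with 5 lower (0.827% over the whole table) and 0 higher (0.373%) at an unadjusted p under 0.05. Its 29 entries in the authors' deposited table for Ino80KD had a median of 0.26, with 0 lower (0.382% over the whole table) and 1 higher (0.912%). These genes were chosen with earlier results known, so nothing is read from the shares.

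A list of 30 regulators of foregut and pharyngeal development, of which 26 had baits with a contact in these data, had 19 and 21 loops in Brg1KD, 64 and 49 in Ino80KD, and 53 and 33 in Control. Foxa2 and Pax1 are on this list too. Of its 73 entries in the authors' deposited table for Brg1KD, 7 were lower and 0 higher at an unadjusted p under 0.05, with a median log2 fold change of -0.18. Of those 7, 5 are the Pax1 and Foxa2 entries already counted for the paralogous locus, and the other 2 are of Nkx2-3. The shares over the whole table were again 0.827% and 0.373%. Of its 100 entries in the authors' deposited table for Ino80KD, 0 were lower and 2 higher, with a median of 0.18, where 0.382% and 0.912% of all entries were. The 2 are 1 of Pax1, counted above too, and 1 of Nkx2-3. The genes of the list differed among themselves. Shh, the hedgehog ligand of gut endoderm and floor plate, had 1 and 2 loops in Brg1KD, 10 and 7 in Ino80KD, and 5 and 3 in Control. Nkx2-3, an NK2 factor of gut and spleen mesoderm, had none in either Brg1KD library, 6 and 4 in Ino80KD, and 4 and 2 in Control. Sox17, the endoderm factor, had 2 and 3 in Brg1KD, 5 and 2 in Ino80KD, and 4 and 4 in Control, so that its Brg1KD and Ino80KD values overlapped. Hoxa3, a patterning gene of the pharyngeal arches, had 2 and 4 in Brg1KD, 6 and 1 in Ino80KD, and 4 and 2 in Control, and Pax8, a thyroid and kidney factor, had 2 and 2 in Brg1KD, 2 and 2 in Ino80KD, and 4 and 0 in Control. Neither had fewer loops in Brg1KD than in Control on average, and their median log2 fold changes in the authors' deposited table for Brg1KD were above 0, at 0.21 and 0.20. Nkx2-5, a heart factor, had 1 and 1 in Brg1KD and none in the other 4 libraries.

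The genes whose loops were spread over the 6 libraries most like those of the locus were found among 1097 genes with at least 20 loops. Likeness was the summed absolute difference of the shares of loops per 1000 that fell in each of the 6 libraries, with a median of 0.502 over these genes. Gata3, a zinc-finger regulator of ear and T-cell development, was nearest at 0.0874, with 1 and 2 loops in Brg1KD, 6 and 7 in Ino80KD, and 7 and 3 in Control. The histone genes H2bc7 and H2bc8, which have the same counts, followed at 0.0992, and Ckm, the muscle creatine kinase gene, at 0.100. The histone genes H2ac13, H2bc13 and H3c10 tied at 0.123. The measure has 6 points per gene, which share libraries and batches, and says nothing of what the genes have in common.

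Contacts of the locus with other chromosomes numbered 1 and 0 in Brg1KD, 0 and 1 in Ino80KD, and 0 and 0 in Control. All baits together had 3809 and 2600 in Brg1KD, 2812 and 2405 in Ino80KD, and 2720 and 2942 in Control, so few were to be listed for 8 of 19083 baits and nothing is read from these counts.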

How the data were processed

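Promoter-capture Micro-C was measured in 3 groups of 2 libraries, grouped by the labels. The authors deposited a loop list per library, in which each loop has a score, and a comparison table per knockdown. Per the file headers, each of the authors' tables gives a mean signal, log2 fold changes with standard errors, a test statistic and p-values. The p-values are given unadjusted and adjusted, and again after weighting. Only those without weighting were used. The submitters' processing notes name the build mm10 and the tool bedtools. The loop caller and the tool behind the tables are not given in the sources used here. The tables hold no counts per library, so no count test was run.

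Baits were named from RefSeq GRCm38.p6. The bait with the most loops was left out of all counts and totals. Counts were made by identical ends with Python 3.11.15, pandas 2.3.3, numpy 2.4.6 and scipy 1.17.1, and tested on simulated data. Figures were drawn with matplotlib 3.10.9. The 6 genes were named by their place in the locus. Single loops were named if listed in at least 3 libraries or joining 2 baits, together with the 5 locus entries of smallest unadjusted p in each table. Shh, Nkx2-3, Sox17, Hoxa3, Pax8, Nkx2-5, Pax1, Foxa2 and Nfkbia were picked from their lists after their values were seen. The members and lists were chosen with earlier results of these data known. The contact pairs within 20 kb and their alternatives were chosen after seeing the data. Replicate numbers pair Ino80KD with Brg1KD because the labels give each number 1 batch in these groups, which is not so for Control. Other alternatives were a higher score minimum, raw counts, no bait window, merging of neighbouring loops, another denominator, left-out libraries and other summaries of the tables.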

Additional observations from a re-analysis of the deposited data

Results flagged for a closer look

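The loops of Pax9 differed in direction between the knockdowns. Both Brg1KD libraries, with 2 and 4 loops, lay below both Control libraries, and both Ino80KD libraries, with 14 and 16, lay above them, against 13 and 8 in Control. Within batch 1, the only batch shared with Control, Ino80KD had 14 loops against 13 in Control. The mean of Ino80KD minus that of Brg1KD was 12 loops, and the difference was not tested.

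The loops among Nkx2-1, Pax9 and Foxa1 split the same way, with 0 and 0 in Brg1KD, 15 and 17 in Ino80KD, and 12 and 4 in Control. With a minimum score of 7, replicate 1 of Ino80KD and replicate 1 of Control both had 7. The mean of Ino80KD minus that of Brg1KD was 16.0 loops, and this difference was not tested either.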

How the results depend on the processing

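Values for loops per 1000 are log2 ratios of group means. Brg1KD against Control (-1.43) was -2.52 with a minimum score of 7 and -2.26 within batch 1. Leaving out 1 library at a time gave -1.96 to -1.04, and the mean over replicate numbers, as a replicate block, was -1.46. Replicate 2 of Control is in another batch than replicate 2 of either knockdown, so a block with Control does not match batches. Ino80KD against Control (0.49) was reversed within batch 1, at -0.063, and ran from 0.18 to 0.87 with 1 library left out. Its replicate block, with the same limit, gave 0.51. Ino80KD against Brg1KD (1.91) was 3.42 with a minimum score of 7, ran from 1.53 to 2.44 with 1 library left out, and was 1.97 with the paired replicate block. In these 3 comparisons every other alternative kept the direction, within 1 SD of the value reported. For the loops among Nkx2-1, Pax9 and Foxa1, Ino80KD minus Brg1KD (16.0 loops) was 9.5 with a minimum score of 7 and 15.0 to 17.0 with 1 library left out. Brg1KD minus Control (-8.0) was -12 without Control replicate 2 and within batch 1. The same difference was -4.0 without Control replicate 1 and with a minimum score of 7. Ino80KD minus Control (8.0) was 3.0 within batch 1 and 5.5 with a minimum score of 7. That difference was 4.0 without Control replicate 2 and 12 without Control replicate 1. The median deposited fold changes kept their direction, at -0.29 to -0.20 for Brg1KD and 0.03 to 0.16 for Ino80KD, and the difference between the tables was 0.22 over baits. The causes of these shifts were not tested. Depth per library is unknown, and loops that are not listed carry no value.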
